A study of Danio rerio with 12 samples.

Results

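Genes for the enzymes, chaperones and inhibitors that crosslink, trim and remodel the extracellular matrix were measured by RNA sequencing in zebrafish white muscle. They were chosen by name: lysyl oxidases, lysyl hydroxylases (plod), prolyl 4-hydroxylases (p4ha), procollagen C-endopeptidase enhancers (pcolce), the collagen chaperone genes serpinh1a and serpinh1b, sparc, matrix metalloproteinases (mmp), their tissue inhibitors (timp), and the adamts proteases with the adamts-like proteins. Of 31962 genes listed, 75 carried such a name. Of these 75, 55 reached 10 counts in 3 or more of the 12 libraries, as did 16056 genes in all, and these 55 are the members described here. The 20 genes below this filter were 11 mmp genes, 3 adamts genes, 2 lysyl oxidases, both loxhd1 genes (which share only the first letters of the name with the lysyl oxidases), 1 p4ha gene and 1 pcolce gene.

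Fibrillar collagen is hydroxylated and folded inside the cell, trimmed at both ends after secretion, and then crosslinked by lysyl oxidases, which oxidise lysine and hydroxylysine side chains. Metalloproteinases cut the finished network and are held in check by the TIMP proteins. In muscle this network forms the connective tissue sheaths around fibres and fibre bundles, and fibroblasts are its best known source. Cortisol acts through the glucocorticoid receptor Gr, a ligand-activated transcription factor.

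The 4 groups held 3 fish each: exercised Gr mutants, non-exercised Gr mutants, exercised wild-type fish and non-exercised wild-type fish. Gr mutants came from the gr s357 line, whose receptor gene nr3c1 has a point mutation in the part that encodes the DNA-binding domain, and wild-type fish were 3 months old when obtained. The age of the mutants is not given in the sources used here. Exercised fish swam against a flow of 0.4 m/s for 6 h per day, 5 days per week, for 4 weeks, whereas non-exercised fish stayed at 0.1 m/s. Each exercise level used its own swim tunnel, so tunnel and exercise cannot be told apart. Comparisons that use the same group share its fish. In whole muscle, more cells of a type and more RNA per cell cannot be told apart, and p-values measure the spread between these fish.

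Total counts were between 7688323 and 13894240 per library, so that 1 count equalled 0.0578 to 0.165 CPM (counts scaled to a common library size). Summed fast muscle markers were at 146778 to 341664 CPM and slow muscle markers at 1030 to 6374 CPM, with the fast marker tnnt3a near 0 (0.09 to 5.96 CPM). The point mutation leaves the nr3c1 transcript in place, so its level is no check of genotype. Some libraries stood apart from the rest of their group. Fibrillar collagen chains summed to 7604 CPM in non-exercised Gr mutant replicate 3, against 1164 and 2815 CPM in replicates 1 and 2. These same replicates 1 and 2 had 993 and 514 CPM of summed macrophage and neutrophil markers, against 62.4 to 154 CPM in the other 10 libraries. Erythrocyte markers reached 3080 CPM in exercised wild-type replicate 2, and oocyte markers 277 CPM in exercised Gr mutant replicate 3.

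In exercised against non-exercised wild-type fish, sparc had the lowest adjusted p of the members and mmp2 the next lowest, both higher after exercise. In the quasi-likelihood test of edgeR, with p-values adjusted over all genes by Benjamini-Hochberg, 1 of 48 members tested, sparc, passed the threshold of 0.05, against 0.37% of all genes. DESeq2, run as an alternative, called 5 members, against 2.71% of all genes. Of the members without overlap between the groups, 13 were higher after exercise and 1 was lower, where all genes gave 10.4% higher and 10.1% lower. At an unadjusted p under 0.05 there were 14 higher members and 1 lower one, against 7.32% and 6.58% of all genes. The median log2 fold change of the members was 0.26, and that of all genes was 0.03. The members' median was 0.54 without non-exercised replicate 2, 0.14 without non-exercised replicate 3 or exercised replicate 1, and 0.41 with no count filter.

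In exercised against non-exercised Gr mutants, edgeR called 0 of 54 members and 0% of all genes. At an unadjusted p under 0.05 there were 4 higher and 2 lower members, against 4.88% and 5.66% of all genes, and DESeq2 called 0 members and 0.658% of all genes. Groups did not overlap for 6 higher and 2 lower members, against 9.11% and 7.08% of all genes. The median log2 fold change was 0.35 for the members and -0.02 for all genes. It was 0.19 for the members without non-exercised replicate 1, and 0.03, with 27 of 53 members above 0, without the leukocyte-rich replicates 1 and 2 together. The value of 0.03 comes from a fit to the remaining libraries of all 4 groups. It rests on replicate 3 as the lone non-exercised mutant, the library high in fibrillar collagen chains. Without non-exercised replicate 3, edgeR called 58 genes, of which 2 were members, MMP25 (1 of 2) and timp2b, both lower after exercise.

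In Gr mutants against wild-type fish without exercise, edgeR called 0 of 51 members, against 0.233% of all genes. At an unadjusted p under 0.05 there were 10 higher and 3 lower members, against 9.91% and 7.34% of all genes, and DESeq2 called 7 members, against 4.72% of all genes. The groups did not overlap for 10 members that were higher and 1 that was lower in mutants, where all genes gave 10.7% and 11.3%. Of these higher members, adamtsl7 and ADAMTS14 passed the count filter only through the mutants. Mutants held 21, 40 and 16 counts of adamtsl7 and 14, 18 and 15 of ADAMTS14. Wild-type fish held 5, 2 and 5 counts of adamtsl7 and 4, 2 and 8 of ADAMTS14. The direction of both was thus favoured by the filter, and no conclusion is drawn from their part in these counts. The median log2 fold change was 0.33 for the members and 0.05 for all genes. The members' median was 0.52 without Gr mutant replicate 1 or wild-type replicate 2, 0.23 without Gr mutant replicate 3, 0.53 without Gr mutant replicates 1 and 2 together and 0.54 with no count filter. The value of 0.53 rests on replicate 3 as the lone non-exercised mutant.

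In exercised Gr mutants against exercised wild-type fish, 2 of 53 members were called, loxl3a and 1 of the genes named adamts15b, both higher in mutants. This is 3.77% of the members, where 3.02% of all genes were called and 0.652% were called higher. DESeq2 called 8 members, against 6.55% of all genes. Of these members 7 were higher and 1 was lower in mutants, where 2.07% of all genes were called higher and 4.48% lower. The groups did not overlap for 12 members that were higher and 3 that were lower in mutants, against 12.5% and 12.8% of all genes. The median log2 fold change was 0.25 for the members and -0.01 for all genes.

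Averaged over genotypes in a fit to all 12 libraries, exercise gave 1 called member of 55, adamts2, against 1.33% of all genes, and DESeq2 called 5, against 4.45% of all genes. Averaged over exercise, the Gr mutation gave 5 called members, all higher in mutants: loxl3a, mmp15a, pcolcea, an adamts15b gene and ADAMTSL4. These 5 were 9.09% of the members, where 8.59% of all genes were called and 3.57% were called higher. DESeq2 called 11 members, against 13% of all genes. Of these members 8 were higher and 3 lower in mutants, where 5.64% of all genes were called higher and 7.34% lower. Of the 55 members, 40 had a log2 fold change above 0 in mutants, with a median of 0.48 where all genes had 0.06.

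**Figure D1:**
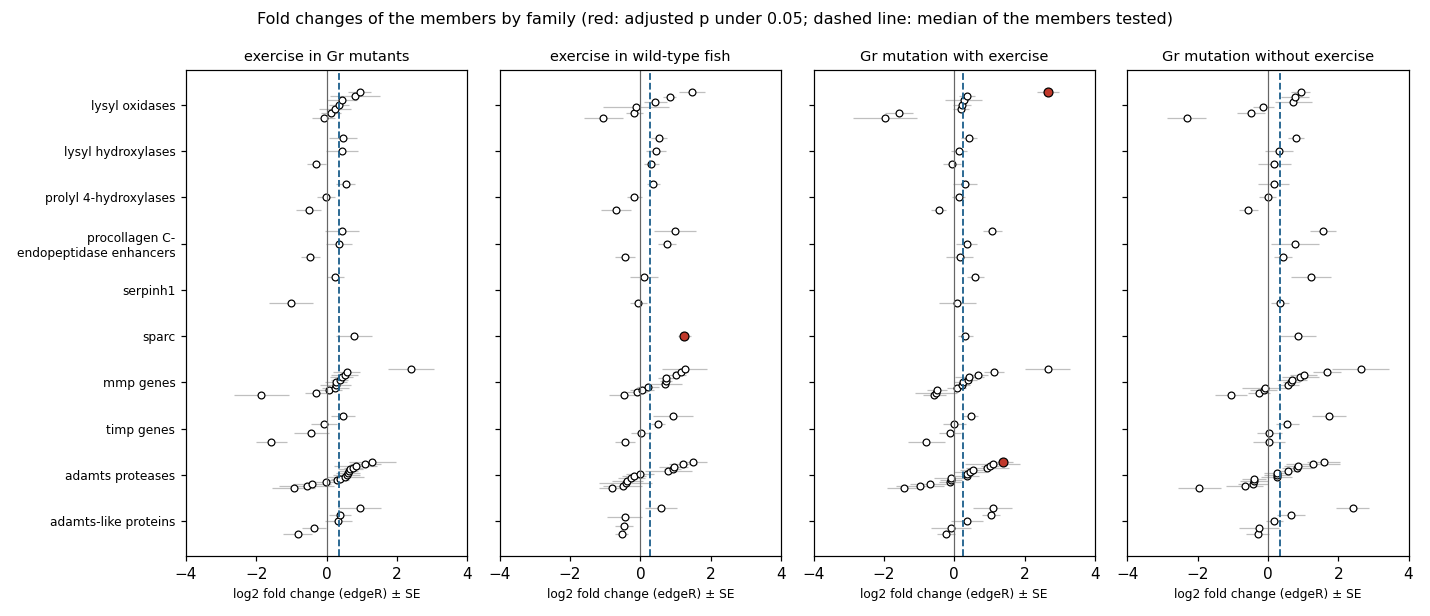
log2 fold changes of the members (edgeR, ± SE) on the x axis, by family on the y axis, in the 4 pairwise comparisons. Filled red points passed an adjusted p of 0.05, and the dashed line is the median of the members tested, which is 0.35, 0.26, 0.25 and 0.33 from left to right. The 3 red points are sparc for exercise in wild-type fish, and loxl3a and adamts15b (ENSDARG00000058252) for the Gr mutation with exercise.

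The first steps of collagen maturation take place inside the cell. The prolyl 4-hydroxylase alpha subunits, which carry the active site of the enzyme that stabilises the collagen triple helix, had no gene past the threshold in any comparison. For p4ha1a, the member with the smallest spread within groups (SD of 0.21 in log2 CPM, where the median of the members was 0.49 and of all genes 0.42), expression was 14.8, 16.8 and 12.2 CPM in exercised Gr mutants and 9.44, 12.2 and 8.32 CPM in non-exercised Gr mutants. In exercised wild-type fish p4ha1a was at 12.2, 13.8 and 13.1 CPM, against 11.7, 9.56 and 9.14 CPM in non-exercised wild-type fish. Exercised wild-type fish were thus all above non-exercised ones in p4ha1a, but the adjusted p was 0.414 (edgeR), and averaged over genotypes the log2 fold change was 0.45 ± 0.15 (SE) with an adjusted p of 0.151. For p4ha2, expression averaged 13.1 ± 2.27 CPM in exercised and 13.2 ± 3.14 CPM in non-exercised Gr mutants (SD, n = 3 each). In wild-type fish the averages were 17.3 ± 3.24 CPM with exercise and 19.5 ± 4.05 CPM without, a log2 difference of -0.49 between genotypes with an adjusted p of 0.0979 (edgeR). For p4ha1b, no comparison had an adjusted p under 0.366.

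The lysyl hydroxylases prepare the lysines that later form crosslinks. The log2 fold changes of the 3 plod genes for exercise in wild-type fish were 0.31 (plod1a), 0.45 (plod2) and 0.53 (plod3), with adjusted p-values of at least 0.347 (edgeR). For plod3, non-exercised fish separated by genotype, with 10.9, 11.6 and 10.4 CPM in Gr mutants against 4.94, 7.30 and 6.77 CPM in wild-type fish. Every mutant was above every wild-type fish, yet over all genes the difference of 0.80 ± 0.24 (log2, SE) had an adjusted p of 0.172 in the edgeR fit. In exercised fish plod3 overlapped between genotypes, at 12.2, 6.76 and 7.75 CPM in Gr mutants and 7.50, 10.3 and 9.61 CPM in wild-type fish.

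The genes serpinh1a and serpinh1b encode Hsp47, the chaperone that escorts procollagen through the secretory pathway. Expression of serpinh1b was 19.0, 16.3 and 12.9 CPM in exercised Gr mutants, against 9.98, 8.46 and 12.5 CPM in exercised wild-type fish. The groups did not overlap, although the highest wild-type fish was close to the lowest mutant, and the adjusted p was 0.207 (edgeR). For exercise in wild-type fish serpinh1b overlapped between the groups, with a log2 fold change of -0.06 ± 0.24 (SE). The copy serpinh1a varied strongly within groups, between 1.15 and 12 CPM over the 12 libraries.

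Procollagen C-endopeptidase enhancers speed the removal of the C-terminal propeptide by BMP1-type proteinases, and pcolcea was the member of this family with the clearest pattern. Expression of pcolcea was 50.4, 35.3 and 53.3 CPM in exercised Gr mutants and 35.6, 20 and 54.7 CPM in non-exercised Gr mutants. In wild-type fish it was at 25.1, 14.5 and 23.8 CPM after exercise and at 15.0, 11.6 and 11.0 CPM without. At each exercise level all mutants were above all wild-type fish. Averaged over exercise, pcolcea was 2.53-fold higher in mutants (log2 1.34 ± 0.24 SE, edgeR adjusted p = 0.00857) and passed the threshold with each of the 12 libraries left out in turn, with adjusted p-values of 0.00493 to 0.0254. Within exercised fish alone the edgeR adjusted p was 0.0755 (log2 1.09), and within non-exercised fish alone it was 0.136 (log2 1.56). The DESeq2 adjusted p-values were 0.0122 and 0.00833. The other measured enhancers, pcolceb and pcolce2b, had log2 differences between genotypes of 0.48 and 0.40 and did not pass.

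**Figure D2:**
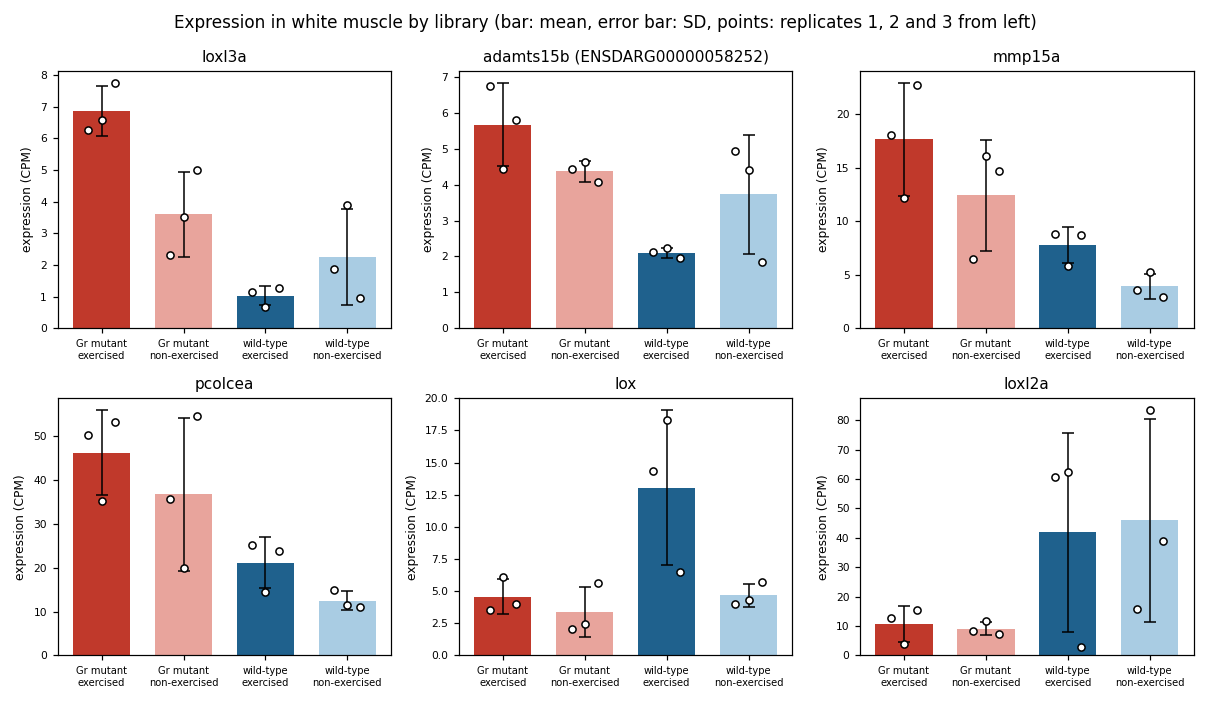
Expression in CPM (y axis) of 6 members in the 4 groups (x axis), with bars for group means, error bars for the SD and points for the 3 replicates. For loxl3a the exercised Gr mutants sit between 6.27 and 7.75 CPM, all above the exercised wild-type fish at 0.681 to 1.28 CPM, whereas loxl2a spreads between 2.93 and 83.4 CPM in wild-type fish.

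Lysyl oxidases crosslink collagen and elastin, and their members did not move as a block. The member with the largest called difference was loxl3a, a lysyl oxidase-like gene. Expression of loxl3a was 6.27, 6.60 and 7.75 CPM in exercised Gr mutants, against 1.13, 0.681 and 1.28 CPM in exercised wild-type fish, so the lowest mutant was far above the highest wild-type fish. The fold change was 6.32 (log2 2.66 ± 0.31 SE, edgeR adjusted p = 0.0103). Without exercise loxl3a overlapped between genotypes, at 2.3, 3.53 and 4.99 CPM in Gr mutants and 1.87, 3.91 and 0.95 CPM in wild-type fish. Averaged over exercise, loxl3a was 3.27-fold higher in mutants (adjusted p = 0.0100), and this call held with each of the 12 libraries left out. Within exercised fish the call was lost without exercised Gr mutant replicate 2 or 3, at adjusted p-values of up to 0.0582.

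Exercise went with different signs of loxl3a in the genotypes, with log2 fold changes of 0.94 ± 0.32 in Gr mutants and -1.05 ± 0.55 in wild-type fish (SE). Neither passed the threshold, and the difference between them, 2.00 ± 0.65 on the log2 scale, had an adjusted p of 0.490 in the edgeR interaction test. The related gene loxl3b had a different pattern. Its level was 9.56, 7.78 and 9.08 CPM in exercised wild-type fish, against 4.60, 5.24 and 5.10 CPM in non-exercised wild-type fish, without overlap (log2 0.83 ± 0.19, adjusted p = 0.125). In non-exercised Gr mutants loxl3b was at 8.85, 7.23 and 12.2 CPM, also all above non-exercised wild-type fish (log2 0.93, adjusted p = 0.165).

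For lox, the founding member of the family, exercised wild-type fish stood out. Expression was 14.4, 18.3 and 6.45 CPM in exercised wild-type fish, against 4.00, 4.32 and 5.70 CPM in non-exercised wild-type fish. Replicates 1 and 2 were well above the rest, and replicate 3 was just above the highest non-exercised fish. The log2 fold change was 1.47 ± 0.37 (SE), with an adjusted p of 0.152 by edgeR and 0.0237 by DESeq2. In Gr mutants lox was at 3.55, 6.10 and 4.01 CPM after exercise, against 2.06, 2.43 and 5.64 CPM without, and the groups overlapped. Exercised Gr mutants were all below exercised wild-type fish in lox (log2 -1.56 ± 0.40, edgeR adjusted p = 0.0732, DESeq2 adjusted p = 0.0110). Without exercised wild-type replicate 3 this comparison passed by edgeR at 0.0133. The interaction for lox was -1.03 ± 0.62 with an adjusted p of 0.690.

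The gene loxl2a was the most variable member within groups (SD of 1.49 in log2 CPM). It was at 60.6, 62.2 and 2.93 CPM in exercised wild-type fish, against 15.7, 83.4 and 38.8 CPM in non-exercised wild-type fish. Gr mutants were lower than most wild-type fish, at 12.8, 3.96 and 15.5 CPM after exercise and 8.38, 11.6 and 7.30 CPM without. Non-exercised mutants were all below non-exercised wild-type fish (log2 -2.32 ± 0.56, edgeR adjusted p = 0.136, DESeq2 adjusted p = 0.00149), whereas exercised wild-type replicate 3 lay below every exercised mutant. Averaged over exercise the log2 difference was -2.14 ± 0.61 with an edgeR adjusted p of 0.0502, just outside the threshold. It passed with DESeq2 (0.0171), with DESeq2 size factors in edgeR (0.0496) and with no count filter (0.0322). It also passed without non-exercised wild-type replicate 1 (0.0444) or exercised wild-type replicate 3 (0.00696). It did not pass with any other single library left out, or with a block for replicate numbers (0.113). Without non-exercised Gr mutant replicates 1 and 2 together, which leaves a lone non-exercised mutant, the log2 difference was -2.31 ± 0.92. The paralogue loxl2b showed none of this, with group means of 25.2 to 33.3 CPM. Because reads were 50 nucleotides long, counts of a and b copies may share reads.

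The remaining lysyl oxidase members were loxl1 and loxl4. Their groups overlapped for loxl1 in every comparison, with group means of 8.97 to 15.1 CPM. The gene loxl4 was near the filter, between 0.177 and 1.52 CPM, and was not tested in 2 of the pairwise comparisons. Both loxl5 genes were below the filter.

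The collagen-binding glycoprotein SPARC is secreted with collagen and is known for its part in fibril assembly. Its gene was the most highly counted member. Expression was 466, 449 and 438 CPM in exercised wild-type fish, against 170, 206 and 193 CPM in non-exercised wild-type fish. These replicates were tight and far apart, with 451 ± 14.4 CPM after exercise and 190 ± 18.4 CPM without (SD, n = 3 each). The fold change was 2.39 (log2 1.25 ± 0.19 SE, edgeR adjusted p = 0.0445). The call sat just inside the threshold: with any of the 6 libraries left out the adjusted p was 0.0952 to 0.172, at log2 fold changes of 1.18 to 1.31, and DESeq2 gave 4.89e-07.

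In exercised Gr mutants sparc was at 609, 498 and 620 CPM, against 155, 211 and 652 CPM in non-exercised Gr mutants. Replicates 1 and 2 without exercise were near the non-exercised wild-type level, and replicate 3 was above every exercised fish. This left a log2 fold change of 0.77 ± 0.51 with an adjusted p of 0.609 by edgeR. Averaged over genotypes the log2 fold change was 1.01 ± 0.30 (adjusted p = 0.120), and without non-exercised Gr mutant replicate 3 the adjusted p was 0.00225. The same library was high in fibrillar collagen chains, and its part in these results was tested only by leaving it out. Exercised Gr mutants were all above exercised wild-type fish in sparc, by a log2 difference of 0.31 with an adjusted p of 0.449.

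**Figure D3:**
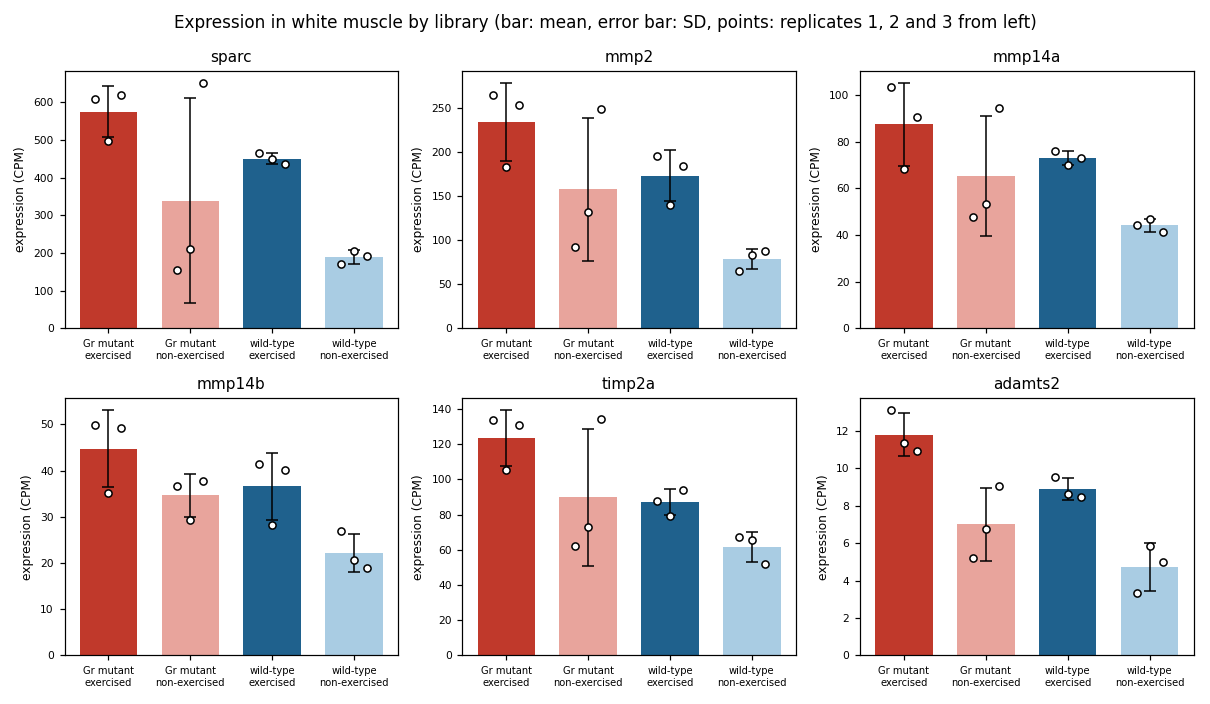
Expression in CPM (y axis) of sparc, mmp2, mmp14a, mmp14b, timp2a and adamts2 in the 4 groups (x axis), with bars for means, error bars for the SD and points for replicates 1, 2 and 3. In all 6 genes exercised wild-type fish lie above non-exercised wild-type fish, and for sparc non-exercised Gr mutant replicate 3 is at 652 CPM where replicates 1 and 2 are at 155 and 211 CPM.

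The gelatinase gene mmp2, the membrane-type genes mmp14a and mmp14b, whose products are known to activate the MMP2 proenzyme, and timp2a, whose product takes part in that activation, were all higher in exercised wild-type fish without overlap between the groups. Expression of mmp2 was 195, 140 and 184 CPM in exercised wild-type fish, against 65.0, 82.9 and 87.3 CPM in non-exercised wild-type fish. The log2 fold change was 1.15 ± 0.22 (SE), with an adjusted p of 0.0870 by edgeR and 0.00124 by DESeq2. For mmp14a the exercised wild-type fish were at 75.7, 69.8 and 72.9 CPM, against 44.3, 46.8 and 41.4 CPM in non-exercised wild-type fish (log2 0.73 ± 0.16, edgeR adjusted p = 0.125, DESeq2 adjusted p = 0.0248). For mmp14b the averages were 36.6 ± 7.27 CPM in exercised and 22.1 ± 4.14 CPM in non-exercised wild-type fish (SD, n = 3 each, edgeR adjusted p = 0.216). For timp2a they were at 87.0 ± 7.32 CPM in exercised and 61.7 ± 8.40 CPM in non-exercised wild-type fish (edgeR adjusted p = 0.291).

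In Gr mutants mmp2, mmp14a and timp2a were split within the non-exercised group, whereas mmp14b, at 36.7, 29.4 and 37.8 CPM there, was not. For mmp2, exercised mutants were at 264, 183 and 253 CPM, against 92.2, 131 and 248 CPM in non-exercised mutants. For mmp14a the values were 103, 68.3 and 90.7 CPM after exercise, against 47.7, 53.4 and 94.6 CPM without. For timp2a they were 134, 105 and 131 CPM after exercise, against 62.1, 73.2 and 134 CPM without. In each of these genes non-exercised replicate 3 was at the level of exercised fish, and the groups overlapped. Averaged over genotypes, mmp2 had a log2 fold change of 0.86 ± 0.24 and an edgeR adjusted p of 0.0953. Without non-exercised Gr mutant replicate 3, exercise averaged over genotypes called 7 members, all higher after exercise: sparc, mmp2, mmp14a, timp2a, lox, adamts2 and ADAMTS17. Calls among all genes also rose in that fit, so the count of 7 is not read as a result about the members. There ADAMTS17 passed the count filter only through exercised libraries, Gr mutant replicates 1 and 2 (15 and 10 counts) and wild-type replicate 1 (14). The non-exercised libraries that were kept held 2 to 4 counts of it. Its direction was thus favoured by the filter, and no conclusion is drawn from its call.

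The membrane-type gene mmp15a differed by genotype. It was at 18.1, 12.2 and 22.7 CPM in exercised Gr mutants, against 8.85, 5.84 and 8.71 CPM in exercised wild-type fish. Without exercise it was at 6.49, 16.1 and 14.7 CPM in Gr mutants, against 3.58, 5.24 and 2.91 CPM in wild-type fish. All mutants were above all wild-type fish of the same exercise level. Averaged over exercise, mmp15a was 2.69-fold higher in mutants (log2 1.43 ± 0.26 SE, edgeR adjusted p = 0.00836), and it passed with each of the 12 libraries left out, at adjusted p-values of 0.00270 to 0.0257. Within single exercise levels the edgeR adjusted p was 0.0734 with exercise and 0.133 without, and the DESeq2 adjusted p was 0.0169 and 0.0092. In wild-type fish mmp15a was also without overlap for exercise (log2 1.02 ± 0.29, adjusted p = 0.179).

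The collagenase gene mmp13b was scarce. It was at 1.48, 3.30 and 3.18 CPM in exercised Gr mutants, against 0.283, 0.0973 and 0.751 CPM in exercised wild-type fish, without overlap (log2 2.66 ± 0.63, edgeR adjusted p = 0.0610, DESeq2 adjusted p = 0.00326). The gene passed the count filter there through the 3 exercised mutants, with 18, 20 and 23 counts, and exercised wild-type replicate 3, with 10. The direction of mmp13b was thus favoured by the filter, and no conclusion is drawn from this difference. In non-exercised Gr mutants mmp13b was at 0.236, 0.231 and 1.11 CPM. The gelatinase gene mmp9 overlapped between groups in every comparison, at 1.54 to 7.79 CPM.

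Of the inhibitors, TIMP3 was at 1.33 to 2.40 CPM in all libraries, with log2 fold changes between -0.11 and 0.04 in the 4 pairwise comparisons. The inhibitor timp4a, at 3.24 to 11.8 CPM, also did not pass in any comparison. The inhibitor timp2b stood out in non-exercised Gr mutants, at 17.7, 27.6 and 7.67 CPM, against 6.30, 6.58 and 3.32 CPM in non-exercised wild-type fish. All 3 mutants were above the wild-type fish (log2 1.74 ± 0.48), with an adjusted p of 0.160 by edgeR and 0.0217 by DESeq2. In exercised Gr mutants timp2b was at 5.61, 6.76 and 5.67 CPM, all below the non-exercised mutants (log2 -1.57 ± 0.44, adjusted p = 0.426). Without the leukocyte-rich non-exercised Gr mutant replicates 1 and 2, the timp2b difference between genotypes without exercise was 0.51 ± 0.70 and that for exercise in mutants was -0.33 ± 0.71. Both values rest on replicate 3 as the lone non-exercised mutant. Exercised wild-type replicate 3, at 20 CPM, was the other high library, where replicates 1 and 2 had 5.52 and 4.67 CPM.

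The high libraries of timp2b and MMP25 (1 of 2) were in part those with high leukocyte markers. MMP25 (1 of 2), named mmp25b in a newer gene table and known in humans as a membrane-type enzyme of leukocytes, was at 6.43, 4.63 and 0.462 CPM in non-exercised Gr mutants, against 0.936, 0.411 and 0.534 CPM in non-exercised wild-type fish. Replicates 1 and 2 were high and replicate 3 was within the wild-type range. Summed macrophage and neutrophil markers in these 3 mutants were 993, 514 and 78.9 CPM, against 91.3, 64.6 and 93.9 CPM in non-exercised wild-type fish. Exercised Gr mutants had 86.9 to 142 CPM and exercised wild-type fish 62.4 to 154 CPM. Of 16 such markers tested, 16 had a log2 fold change above 0 in non-exercised mutants, and no marker of the list was at 0 in all libraries. In replicate 1 the neutrophil genes lyz and mpx were at 431 and 69.7 CPM, whereas replicate 2 had 1.21 and 0.93 CPM of these and 37.2 CPM of the macrophage gene mpeg1.1.

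Without these 2 libraries, the lone remaining non-exercised mutant was assumed to vary like the other groups. In that fit the log2 differences for the Gr mutation without exercise were 1.65 (mmp2), 2.12 (pcolcea) and 1.77 (sparc). With all libraries they were 1.01, 1.56 and 0.84. The values without the pair rest on that lone mutant library. Without replicate 3 instead, the called members were MMP25 (1 of 2) and timp2b, with adjusted p-values of 0.0208 and 0.0344 (edgeR). These were 2 of 49 members tested, where 544 of 14747 genes were called, so the members did not stand out from all genes there. The calls in non-exercised mutants therefore depended on which libraries were kept. The part of leukocytes in the levels of these genes was not tested.

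**Figure D4:**
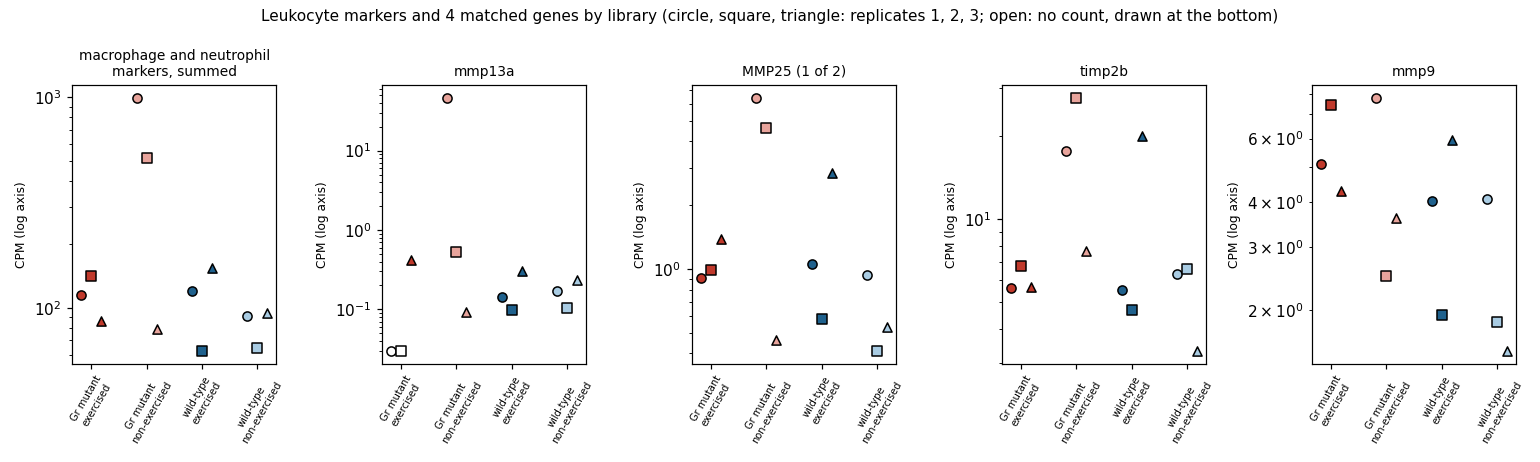
Summed macrophage and neutrophil markers and 4 matched genes, in CPM on log axes (y), in the 4 groups (x), with circles, squares and triangles for replicates 1, 2 and 3 and open symbols for no count. Non-exercised Gr mutant replicates 1 and 2 are highest for the markers (993 and 514 CPM) and for MMP25 (1 of 2) (6.43 and 4.63 CPM).

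The adamts proteases include procollagen N-proteinases and enzymes that cut large proteoglycans. The procollagen N-proteinase gene adamts2 was at 13.1, 11.4 and 10.9 CPM in exercised Gr mutants, against 5.19, 6.77 and 9.06 CPM in non-exercised Gr mutants. In wild-type fish it was at 9.56, 8.66 and 8.48 CPM after exercise, against 3.32, 5.86 and 4.99 CPM without. Within each genotype every exercised fish was above every non-exercised one. Averaged over genotypes, adamts2 was 1.79-fold higher after exercise (log2 0.84 ± 0.18 SE, edgeR adjusted p = 0.0460). This call was kept without non-exercised Gr mutant replicate 3 (adjusted p = 0.0192) and lost without any other library, at adjusted p-values of up to 0.0984. It was also lost without non-exercised Gr mutant replicates 1 and 2 together (0.167) and with no count filter (0.0733). The genes of the other procollagen N-proteinases, adamts3 and ADAMTS14, were not called.

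The name adamts15b belonged to 2 identifiers. The first, ENSDARG00000058252, which the gene name table calls ADAMTS8, was at 6.76, 4.45 and 5.81 CPM in exercised Gr mutants, against 2.12, 2.24 and 1.95 CPM in exercised wild-type fish. The groups were well apart (2.64-fold, log2 1.40 ± 0.26 SE, edgeR adjusted p = 0.0316). Without exercise the genotypes overlapped, at 4.42, 4.63 and 4.07 CPM in Gr mutants and 4.94, 4.42 and 1.84 CPM in wild-type fish. Averaged over exercise the adjusted p was 0.0442. With a library left out, the call within exercised fish was lost in all 6 cases (adjusted p of 0.0571 to 0.103), and the averaged call was kept only without non-exercised wild-type replicate 1 or 3 or non-exercised Gr mutant replicate 3. Without non-exercised Gr mutant replicates 1 and 2 together its adjusted p was 0.161. The other identifier, ENSDARG00000033544, was at 6.93, 6.76 and 7.61 CPM in exercised Gr mutants and 4.03, 2.72 and 3.38 CPM in exercised wild-type fish, also without overlap (log2 1.02, adjusted p = 0.0630).

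ADAMTSL4, an adamts-like protein without protease activity that is known in humans as a partner of fibrillin microfibrils, was at 16.4, 32.5 and 24.4 CPM in exercised Gr mutants, against 11.0, 11.8 and 11.6 CPM in exercised wild-type fish. The wild-type fish were in a very narrow range below all mutants (log2 1.05 ± 0.26, edgeR adjusted p = 0.0714, DESeq2 adjusted p = 0.0200). Without exercise ADAMTSL4 overlapped between genotypes, with Gr mutants at 18.8, 21.7 and 15.3 CPM (log2 0.18 ± 0.25, edgeR adjusted p = 0.768). Averaged over exercise ADAMTSL4 was 1.54-fold higher in mutants (log2 0.63 ± 0.18 SE, adjusted p = 0.0490). With 1 library left out, this call was kept only without non-exercised Gr mutant replicate 3 or exercised Gr mutant replicate 1, and it was lost with DESeq2 size factors (adjusted p = 0.0532), with no count filter (0.0794) and without non-exercised Gr mutant replicates 1 and 2 together (0.224). In exercised wild-type fish ADAMTSL4 was below non-exercised wild-type fish, which had 17.5, 13.5 and 18.8 CPM (log2 -0.53 ± 0.19, adjusted p = 0.263).

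The other adamts members included adamts1, a proteoglycan-cutting enzyme gene, at 2.31, 6.27 and 9.83 CPM in exercised and 1.24, 3.87 and 5.27 CPM in non-exercised Gr mutants. In wild-type fish adamts1 was at 11.2, 13.4 and 3.83 CPM after exercise and 4.85, 17.1 and 18.2 CPM without, and all groups overlapped. It did not pass in the edgeR fits (averaged over exercise, log2 -1.31, adjusted p = 0.101), whereas DESeq2 called it lower in mutants without exercise (adjusted p = 0.0306) and averaged over exercise (0.0415). The gene adamts15a was at 9.20, 7.98 and 4.80 CPM in exercised wild-type fish, against 1.28, 3.08 and 3.38 CPM in non-exercised wild-type fish (log2 1.5 ± 0.40, adjusted p = 0.162 by edgeR and 0.0362 by DESeq2).

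Whether exercise acted differently by genotype was tested as an interaction for all 55 members over the 12 libraries. By edgeR, 0 members and 0% of all genes passed, with 8 members at an unadjusted p under 0.05 (3 higher and 5 lower, against 3.31% and 5.08% of all genes), and DESeq2 called 0 members and 0.206% of all genes. The lowest adjusted p of a member was 0.490, for adamtsl7, loxl3a and timp2b, with log2 interactions of -2.43, 2.00 and -2.48. The gene adamtsl7 had only 5, 2 and 5 counts in non-exercised wild-type fish. Without non-exercised Gr mutant replicates 1 and 2, the interactions of loxl3a and timp2b were 1.52 and -1.27.

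Some collagen chain genes, which were no members, were also called for exercise in wild-type fish. Of 12 fibrillar collagen chains tested, 3 were called higher: col11a1b (log2 1.72), col1a2 (1.69) and col5a1 (1.37), with edgeR adjusted p-values of 0.0201, 0.0459 and 0.0367. Their list had a median of 1.22, where all genes had 0.03. Of 12 basement membrane and microfibril collagen chains, 0 were called by edgeR and 9 had an unadjusted p under 0.05. Of 24 genes for collagen folding, secretion and trimming, 0 were called in that comparison and 2 had an unadjusted p under 0.05, both higher, with a median of 0.17.

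Averaged over exercise, 4 of 12 fibrillar collagen chains were higher in Gr mutants, col1a1a, col1a2, col1a1b and col2a1b, with log2 differences of 1.77, 1.47, 1.32 and 1.12. In the folding and secretion list, 2 of 24 were higher and 1 was lower: ppib, a prolyl isomerase of the collagen folding machinery (log2 0.77), fkbp10b, another one (0.91), and mia3, which helps export procollagen (-0.47). Of 25 other matrix proteases and inhibitors, htra1b (0.88) and adam19a (0.73) were higher in mutants. Of 28 matricellular and TGF-beta genes 7 were higher and 0 lower, among them tgfb3 (1.40), fn1a (1.75), postna (0.92) and elna (0.80).

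Of 14 fibroblast markers tested for the Gr mutation averaged over exercise, 3 were called higher, lum, dcn and fap (log2 1.60, 1.06 and 1.1), where 3.57% of all genes were called higher, and 13 had a log2 difference above 0. The summed list was at 359 to 452 CPM in exercised and 339 to 419 CPM in non-exercised Gr mutants, and at 209 to 269 CPM in exercised and 136 to 224 CPM in non-exercised wild-type fish, so all mutants were above all wild-type fish. No marker of this list was at 0 in all libraries. For exercise in wild-type fish 0 of 12 fibroblast markers were called by edgeR, with 5 at an unadjusted p under 0.05. Of 14 skin and scale markers, phex and bglapl were called higher there (log2 1.35 and 2.83), and the summed list was at 139 to 608 CPM in exercised and 321 to 518 CPM in non-exercised wild-type fish. Of 14 fast muscle markers, atp2a1 and tnni2a.4 were called lower in mutants averaged over exercise (log2 -1.39 and -1.58) and pvalb1 was called higher (1.66), at summed levels that overlapped between genotypes. The part of fibroblast, skin, scale or fibre type material in the members' levels was not tested.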

How the data were processed

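The authors aligned single-end 50-nucleotide reads to the zebrafish genome (GRCz10, Ensembl 80) and deposited raw counts per gene. The submitters' processing notes name CASAVA, TopHat2 2.0.5, SAMtools 0.1.18, HTSeq 0.5.3p9 and DESeq. The deposited tables also hold the authors' comparisons (group means, fold changes and p-values), which were not used. Libraries came from a kit that does not mark strand, so reads of overlapping genes cannot be told apart. Counts of 12 libraries in 4 groups of 3 were tested with edgeR 4.0.16 (R 4.3.3, limma 3.58.1): quasi-likelihood test, TMM scaling, keeping genes that reached 10 counts in 3 or more of the libraries fitted, Benjamini-Hochberg adjustment over all genes, threshold 0.05. Standard errors are the log2 fold change divided by the square root of F. Pairwise comparisons used their own 6 libraries, whereas averages and the interaction used 12. CPM values use TMM factors over 12 libraries, and levels were not compared between genes. Symbols were checked by identifier in a gene name table, which held 73 of the 75.

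Members and gene lists were chosen with earlier results of these data known. Named were members past the threshold in any comparison, in each pairwise comparison the 3 largest differences per direction among members without overlap and with a mean of at least 100 counts, and the lysyl oxidases, lysyl and prolyl hydroxylases, enhancers, chaperones, sparc, inhibitors, mmp2, mmp9, mmp13a, mmp14a and mmp14b. The genes loxl3b, p4ha2, mmp13b, MMP25 (1 of 2), adamts1, adamts15a, adamtsl7, ADAMTS17, adamts3, ADAMTS14 and the second adamts15b, where outside that rule, and the leukocyte genes lyz, mpx and mpeg1.1 were chosen after their values were seen.

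Alternatives were DESeq2 1.42.0, its size factors in edgeR, no count filter, a filter or fit over 12 libraries, a threshold of 0.1, a replicate block and leaving out each library. Leaving out the 2 leukocyte-rich libraries together, and DESeq2 with its independent filtering tuned for 0.05 in place of the default 0.1, were added after results had been seen; both DESeq2 settings are reported. The tests were run on simulated counts with known changes of log2 1 and 2. The changed genes all had mean counts above the filter's minimum, and every gene was given the same spread between libraries. The recovered shares therefore do not cover members near the filter or with a wider spread. Of the changes of log2 1 and 2, edgeR recovered 10% and 89% in the layout of exercise in wild-type fish. It recovered 56% and 100% for exercise averaged over genotypes, and 1% and 32% for the interaction. A member without a call may therefore still have changed by such an amount. No library was a copy of another of its group (lowest chi-square per gene between libraries 16.9). Python 3.11.15 with pandas 2.3.3 and matplotlib 3.10.9 made the summaries and figures.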

Additional observations from a re-analysis of the deposited data

Results flagged for a closer look

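The collagenase gene mmp13a was left out of every test, because it reached 10 counts in too few libraries. It was at 46.4 CPM in non-exercised Gr mutant replicate 1, above the 0.103 to 0.237 CPM of non-exercised wild-type fish. That library held 786 of its 813 counts over all libraries. The other non-exercised Gr mutants were at 0.520 and 0.0924 CPM. The same library had the highest lyz and mpx levels of all 12 (431 and 69.7 CPM). The gene was picked as having at least 100 counts in some library and a level above that of non-exercised wild-type fish, a criterion set after the values were seen. Whether leukocytes carried the transcript was not tested.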

How the results depend on the processing

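Counts of called members depended on the setting. For exercise in wild-type fish, 1 of 54 genes called was a member, and 2 of 184 at an adjusted p under 0.1. It was 0 with the filter or the fit over 12 libraries, and 5 of 395 genes with DESeq2. For exercise in Gr mutants it was 0, also with DESeq2, where 96 genes were called. For the Gr mutation without exercise, 0 of 35 genes called were members, and 7 of 709 with DESeq2. It was 6 with DESeq2 filtered for 0.05, and 1 at an adjusted p under 0.1. That 1 was adamtsl7, whose direction was favoured by the filter. For the Gr mutation with exercise, 2 of 426 genes called were members, and 8 of 924 with DESeq2. It was 8 at an adjusted p under 0.1, 1 with the fit over 12 libraries and 7 with DESeq2 filtered for 0.05. For exercise averaged over genotypes, 1 of 214 genes called was a member, and 5 of 714 with DESeq2. It was 4 at an adjusted p under 0.1, 0 with no count filter and 5 with DESeq2 filtered for 0.05. For the Gr mutation averaged over exercise, 5 were called, 15 at an adjusted p under 0.1, 9 without the pair and 11 with either DESeq2 setting. The interaction gave 0 throughout. The causes were not tested. Where no number for all genes is given beside a member count, that count is not read as a result about the members. Filtering at 0.05 in DESeq2 was chosen after the data were seen, as was leaving out the leukocyte-rich pair of libraries. Counts of calls without that pair are not given here, because a lone non-exercised mutant remains.

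Leaving out 1 library gave 0 to 0 called members for exercise in wild-type fish and 0 to 2 for exercise in Gr mutants. For the Gr mutation it gave 0 to 2 without exercise and 0 to 4 with exercise. It gave 0 to 7 for exercise averaged over genotypes and 3 to 7 for the Gr mutation averaged over exercise. Calls among all genes also changed with the library left out, so these ranges are not read as results about the members. The median interaction of the members, -0.15, ranged from -0.31 to 0.067 with 1 library left out, and only without non-exercised Gr mutant replicate 3 was it above 0. For members called, or named for their size, in a given comparison, 228 values under the other settings stayed on their side of the threshold, 22 gained and 59 lost significance, and 0 changed direction (members in comparisons where they were not so named are not counted).

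Replicate numbers did not pair the samples. Same-numbered samples of different groups had correlations of their deviations between -0.245 and 0.165, and 2 of 12 were closest to their own number. With the replicate block, 0 members were called for exercise in wild-type fish, 0 for exercise averaged over genotypes, 1 for the Gr mutation with exercise and 3 for the mutation averaged over exercise.

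Depth limits genes near the filter, such as mmp13b and loxl4, where a few counts make up a value.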
